A study of Homo sapiens with 12 samples.

Results

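The genes described here act between foreign or misplaced nucleic acid in the cell and the interferon response. They are the DNA sensor IFI16, the DNA exonuclease TREX1, the dNTP hydrolase SAMHD1, the kinases TBK1 and IKBKE, the transcription factor IRF3, and the paired antiviral factors SAMD9 and SAMD9L. They were picked by gene name in the deposited abundance files, and make up 8 of the 60609 genes there. A gene was tested where it reached a TPM (a share of all transcripts, scaled for transcript length) of 1 in at least 2 libraries, which left 17185 genes and 7 of the 8. TREX1 was the gene that did not pass. SAMD9L passed through its 6 poly I:C libraries, with 1 depc library at 1 TPM or more, so its choice for testing was not independent of poly I:C.

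Messenger RNA was sequenced in 12 libraries of NS-SV-AC, an established human cell line from salivary gland acinar tissue, in a study of double-stranded RNA and Sjögren's syndrome. There were 6 groups of 2 replicates. Cells received DMSO (the solvent control), 2-CM (2'-C-methyladenosine, a nucleoside analogue) or RES (resveratrol), followed by transfection of poly I:C (an artificial double-stranded RNA that mimics viral RNA) or of the control named depc in the labels. Each compound was given 24 h ahead of the transfection and once more with it, at a dose of 20 in the unit "μm" of the labels, read here as micromolar. DMSO cells had an equal volume of solvent, poly I:C acted for 14 h, and culture lasted 48 h. All groups share the cell line and a transfection, and no untransfected cells were analysed here. No label says that replicates were separate cultures, so p-values measure only the spread between these libraries, which may be technical.

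As background, cells read double-stranded RNA through RIG-I-like and Toll-like receptors and read DNA through cGAS and other sensors, IFI16 among them. These routes meet at TBK1 and its close relative IKBKE, which phosphorylate IRF3 so that it enters the nucleus and switches on interferon genes. Interferon in turn induces many antiviral genes, while TREX1 and SAMHD1 remove DNA and its building blocks and so keep the sensors quiet. Inherited loss of TREX1 or SAMHD1 causes Aicardi-Goutières syndrome, an interferon disorder.

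The genes lie on 6 chromosomes. In GRCh38 coordinates of the deposited files, IFI16 spans chr1:158999968-159055155, IKBKE chr1:206470476-206496889, TREX1 chr3:48465811-48467645 and TBK1 chr12:64452092-64502114. IRF3 spans chr19:49659569-49665875 and SAMHD1 chr20:36889773-36951901. SAMD9 (chr7:93099513-93118023) and SAMD9L (chr7:93130056-93148385) are neighbours on the minus strand, 12032 bases apart.

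Promoter windows of 300 bases were taken from RefSeq (GRCh38.p14), and 7 of the 8 genes had one; IRF3 had no entry. The stretches below are those of the 4 genes that lay higher with poly I:C under every compound. Each is up to 150 bases of such a window upstream of the RefSeq start, 5′ to 3′ on the gene's strand, and touches no exon of its gene in the deposited annotation. Capitals mark every match to AANNGAAA, the short core that IRF proteins bind, with overlapping matches run together, and SAMHD1 has none in its window. SAMD9 is chr7:93118024-93118173 on the minus strand, SAMD9L is chr7:93148386-93148535 on the minus strand, and IFI16 is chr1:159009742-159009891 on the plus strand, within an intron of IFI16 transcripts that start farther upstream. For SAMHD1 57 bases were free of exons, chr20:36951902-36951958 on the minus strand.
SAMD9: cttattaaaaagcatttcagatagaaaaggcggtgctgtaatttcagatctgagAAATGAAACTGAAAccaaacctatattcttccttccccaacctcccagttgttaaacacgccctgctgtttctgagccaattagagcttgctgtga
SAMD9L: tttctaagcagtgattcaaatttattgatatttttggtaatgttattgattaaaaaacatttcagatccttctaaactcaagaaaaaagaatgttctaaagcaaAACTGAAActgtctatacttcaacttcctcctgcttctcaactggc
IFI16: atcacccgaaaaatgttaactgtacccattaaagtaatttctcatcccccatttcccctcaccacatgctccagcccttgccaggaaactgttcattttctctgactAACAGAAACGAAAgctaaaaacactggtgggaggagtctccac
SAMHD1: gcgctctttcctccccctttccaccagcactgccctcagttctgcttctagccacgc

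In all, 3 motifs were searched on both strands of all 35116 windows of that length. The core of the interferon-stimulated response element, GAAA followed by any 2 bases and again GAAA, was in 3.57% of the windows and in 1 of the 7, that of SAMD9, where it began 136 bases before the RefSeq start and overlapped both AANNGAAA matches. TTCNNNGAA, the gamma-activated site core, was in 7.66% of windows and in 0 of the 7. AANNGAAA, added after the windows had been seen, was in 22.8% of windows and in 4 of the 7, those of IFI16, IKBKE, SAMD9 and SAMD9L. A match is a description of letters and was not tested for binding.

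The libraries held 31.2 to 49.4 M reads as estimated from coverage. Replicates of DMSO poly I:C, RES depc and RES poly I:C lay far apart, with 3654, 4951 and 2766 genes differing by 1 or more on the log2(TPM + 1) scale, against 246 for 2-CM poly I:C. In all 6 groups the difference between replicates followed the GC content of genes, with a Spearman correlation across genes from -0.77 to -0.42 in 5 groups and 0.76 in RES poly I:C, where the order of the replicates was opposite. Replicate differences of that group correlated across genes at -0.80 to -0.31 with those of the other 5 groups, which correlated with each other at 0.15 to 0.76. Whether the labels of RES poly I:C are right was not tested, and results for RES rest on them as given. The acinar label was set against 8 salivary acinar markers: AQP5, MUC7, PRB1 and STATH were at 0 in all 12 libraries, 2 of the 8 reached 1 TPM, and their summed level was 1.52 to 3.73 TPM with depc and 0.882 to 1.81 with poly I:C. Of 6 epithelial markers, the simple-epithelial keratins KRT8 and KRT18 stood at 630 to 1958 and 466 to 1571 TPM, while KRT5 was at 0 in all 12 libraries and KRT19 (up to 0.243), CDH1 (up to 0.596) and EPCAM (up to 1.23 TPM) were low. Of 5 leucocyte markers 3 reached 1 TPM, with CD14 at 7.05 to 15.8 and CD68 at 1.68 to 8.80 TPM. PTPRC and CD3E were at 0 in every library. Summed endothelial markers stayed at or below 0.258 TPM. Of 4 fibroblast markers 2 reached 1 TPM, COL1A1 at 15.9 to 100 and DCN at 0.584 to 18.0 TPM. PDGFRA (up to 0.0813 TPM) and COL1A2 (up to 0.0193 TPM, and at 0 in 11 libraries) were low. The summed epithelial level was 1682 to 3530 TPM with depc and 1098 to 1733 with poly I:C, the fibroblast sum 51.6 to 104 and 23.5 to 59.6, and the leucocyte sum 10.2 to 21.2 and 9.09 to 22.8, so the first and second lay lower with poly I:C with some overlap. Their part in the results was not tested. In bulk RNA, fewer cells of a type and less RNA per cell cannot be told apart.

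**Figure D1:**
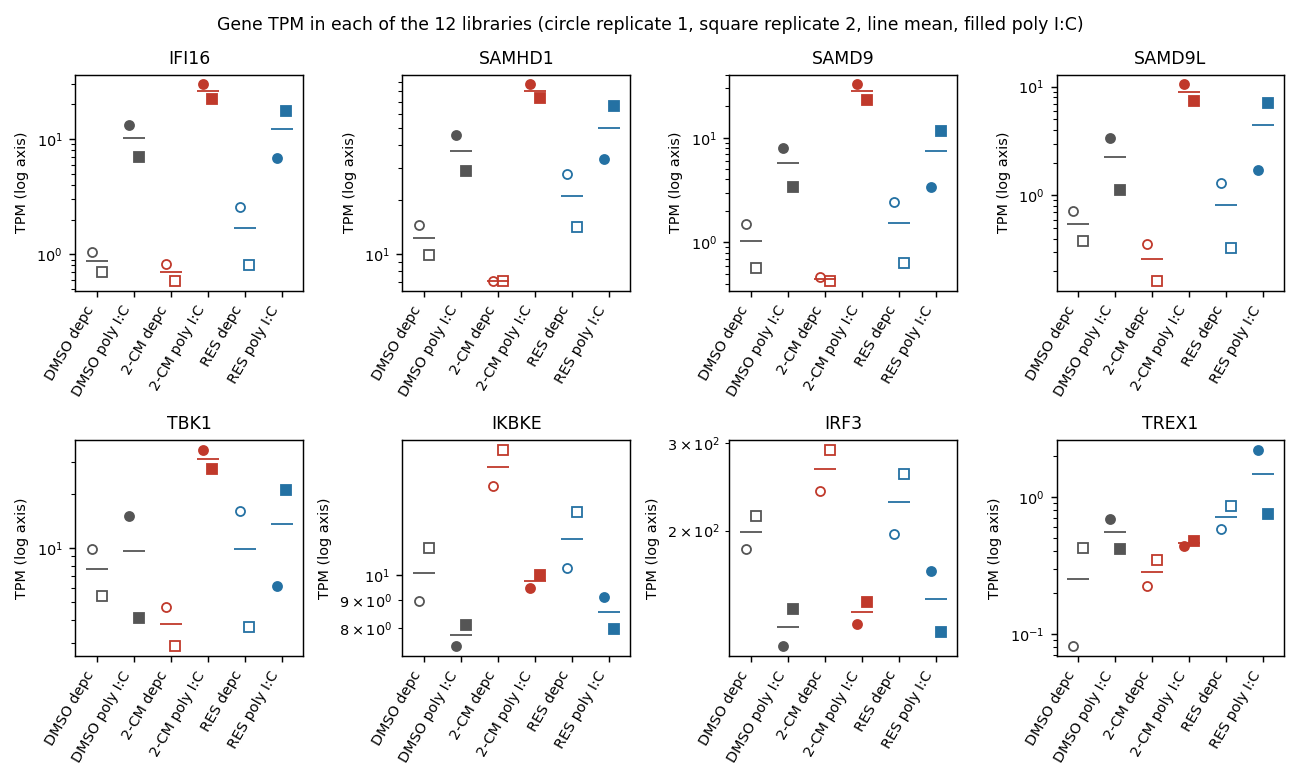
TPM of each gene (log axis) in the 12 libraries, by compound and transfection. Circles are replicate 1, squares are replicate 2, filled symbols had poly I:C, and lines are group means. IFI16, SAMHD1 and SAMD9 lie above every depc library in all 6 poly I:C libraries, IRF3 lies below, and TBK1 follows the spread between replicates under DMSO and RES.

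Poly I:C divided the 7 tested genes into 3 patterns. By non-overlap of 2 libraries against 2, with no test, IFI16, SAMHD1, SAMD9 and SAMD9L lay above their depc libraries under each compound, as did 11.5% of tested genes under DMSO, 62.6% under 2-CM and 6.05% under RES. IRF3 and IKBKE lay below under each compound, as did 33.4%, 23.9% and 24.1% of tested genes, and TBK1 was apart from its depc libraries under 2-CM alone. By the limma test within a compound, IFI16 passed under DMSO, where 4.08% of tested genes did. All 7 passed under 2-CM, where 49.3% did, and 0 passed under RES, where 0.442% did. All 6 poly I:C libraries lay above all 6 depc libraries for IFI16, SAMHD1 and SAMD9, as did 1.33% of tested genes. They lay below for IRF3, as did 6.34% of tested genes. Averaged over the 3 compounds, 6 of the 7 passed the limma test at an adjusted p under 0.05, 4 higher and 2 lower, and 31.2% of all tested genes did, 13.4% higher and 17.8% lower. The 7 had a median log2 fold change of 1.79, and all tested genes had a median of 0.16.

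IFI16 binds DNA in the nucleus and cytoplasm and passes the signal to STING. With depc its level was 1.05 and 0.703 TPM under DMSO, 0.831 and 0.586 under 2-CM, and 2.56 and 0.810 under RES. After poly I:C the values were 13.4 and 7.04, 29.9 and 22.3, and 6.87 and 17.6 TPM, in the same order. Every poly I:C library was above every depc library. The 2-CM poly I:C libraries were the highest and did not overlap the other groups, as also for SAMHD1, TBK1, SAMD9 and SAMD9L. The share of all tested genes with that order was not counted. Median-of-ratios scaling factors, which follow the level of most genes, were also highest in those libraries, at 1.46 and 1.44. Averaged over compounds IFI16 rose by 2.92 on the log2(TPM + 1) scale (SE 0.28, adjusted p 0.0006, limma), a scale that understates changes of genes near or below 1 TPM. In the depc libraries IFI16 rested on few reads, from 49.1 estimated reads in a library of 2-CM depc. Transcripts annotated as protein coding carried 82.0 to 99.5% of its TPM with poly I:C, but 3.42 to 99.7% with depc.

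SAMHD1 cleaves dNTPs and thereby limits DNA synthesis by viruses. It was the highest of the 4 induced genes on the per-length TPM scale. With depc SAMHD1 stood at 14.5 and 9.89 TPM under DMSO, 7.06 and 7.05 under 2-CM, and 27.7 and 14.0 under RES. In the poly I:C libraries it reached 45.8 and 29.0, 87.3 and 73.1, and 33.5 and 66 TPM. The lowest poly I:C library, at 29.0 TPM, was just above the highest depc library, at 27.7. Transcripts annotated as protein coding carried 57.2 to 99.7% of SAMHD1 TPM, and on their sum the transfections overlapped under RES, at 24.8 and 13.6 TPM with depc and 23.3 and 58.7 with poly I:C, but not under DMSO or 2-CM. SAMHD1 rose by 2.02 (SE 0.24, adjusted p 0.00136, limma) averaged over compounds. On the opposite strand, TLDC2 shares 1159 of its exon bases, 10.3% of them, and lay at or below 1.06 TPM.

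SAMD9 and SAMD9L are large cytoplasmic proteins that restrict poxviruses and slow translation and growth. SAMD9 measured 1.5 and 0.571 TPM with DMSO depc, 0.468 and 0.428 with 2-CM depc, and 2.43 and 0.640 with RES depc. With poly I:C it measured 8.03 and 3.39 TPM under DMSO, 32.4 and 23.0 under 2-CM, and 3.40 and 11.5 under RES, so the transfections did not overlap. SAMD9 rose by 2.54 (SE 0.33, adjusted p 0.00204, limma) averaged over compounds.

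SAMD9L ran below SAMD9 in every library. Its depc values were 0.720 and 0.379 TPM under DMSO, 0.354 and 0.163 under 2-CM, and 1.31 and 0.328 under RES. Its poly I:C values were 3.39 and 1.13, 10.5 and 7.38, and 1.72 and 7.08 TPM. Groups were apart under each compound, but the lower DMSO poly I:C library (1.13 TPM) was below RES depc replicate 1 (1.31 TPM). SAMD9L rose by 1.79 (SE 0.31, adjusted p 0.00540, limma) averaged over compounds. Since it passed the filter on low levels through the poly I:C libraries alone, the value without that filter stands beside it, an adjusted p of 0.017 by limma. The main SAMD9 transcript, ENST00000379958.3, held 84.5% of that gene's summed TPM, and the main SAMD9L transcript, ENST00000318238.9, held 71.1%.

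IRF3, the factor that TBK1 and IKBKE activate, was the most abundant gene of the set. With depc it stood at 184 and 214 TPM under DMSO, 240 and 291 under 2-CM, and 197 and 260 under RES. Poly I:C libraries had 117 and 139, 130 and 144, and 166 and 125 TPM, below every depc library. IRF3 fell by 0.74 (SE 0.12, adjusted p 0.00466, limma) averaged over compounds. After each library was corrected for its trend with the GC content of genes the change was -0.28 (adjusted p 0.00757). IRF3 shares 734 exon bases, 19.3% of its own, with BCL2L12 on the opposite strand, a gene at 93.8 to 197 TPM. No header states whether the strand of reads was used, so reads there may have been given to either gene.

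IKBKE, the kinase related to TBK1, is known as inducible in immune cells. Its depc levels were 8.98 and 11.2 TPM under DMSO, 14.5 and 16.9 under 2-CM, and 10.3 and 13 under RES. Its poly I:C levels were 7.42 and 8.13, 9.47 and 10, and 9.13 and 7.98 TPM. Within each compound the poly I:C libraries were lower, as for 33.4% (DMSO), 23.9% (2-CM) and 24.1% (RES) of tested genes, but 2-CM poly I:C and RES poly I:C reached above the lowest DMSO depc library. IKBKE fell by 0.46 (SE 0.12, adjusted p 0.0271, limma) averaged over compounds. After the same GC correction the change was -0.06 (adjusted p 0.504), and leaving out 1 of 7 libraries (DMSO depc 2, DMSO poly I:C 1, 2-CM depc 2, either of 2-CM poly I:C, RES depc 2 or RES poly I:C 2) also ended the call, with values of -0.40 to -0.47 and adjusted p of 0.0579 to 0.0906.

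TBK1 phosphorylates IRF3 and the adaptors MAVS and STING. It measured 9.94 and 5.41 TPM with DMSO depc, 4.74 and 2.86 with 2-CM depc, and 16.1 and 3.68 with RES depc. Poly I:C values were 15.1 and 4.09 under DMSO, 35.0 and 27.5 under 2-CM, and 6.18 and 21.0 under RES. Replicates under DMSO and RES lay as far apart as the transfections, and only 2-CM separated them. The change averaged over compounds was 1.12 (95% CI 0.11 to 2.14, adjusted p 0.0800, limma), where genes of like GC content had a median of 0.72. It passed without DMSO poly I:C 2 (1.40), RES depc 1 (1.44) or RES poly I:C 1 (1.39). It also passed with voom (as did 36.8% of genes), upper-quartile (36.6%) and median-of-ratios scaling (36.3%). Over all the alternatives the change ran from 0.41 to 1.44. The coding transcript ENST00000331710.10 held 57.0% of summed TBK1 TPM, and ENST00000652537.1, annotated for nonsense-mediated decay, held 32.3%, with a share from 0 to 67.8% between libraries.

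TREX1, the main cytosolic DNA exonuclease, could not be followed. It was at 0.0813 and 0.421 TPM with DMSO depc, 0.692 and 0.415 with DMSO poly I:C, 0.223 and 0.344 with 2-CM depc, and 0.442 and 0.475 with 2-CM poly I:C. RES depc had 0.581 and 0.855 TPM, and RES poly I:C had 2.21 and 0.745. These levels rest on 2.70 to 56.0 estimated reads. All 1448 exon bases of TREX1, 100% of them, also lie within 3 transcripts of ATRIP on the same strand, whose summed level was 4.08 to 10.4 TPM, so reads of TREX1 can have been given to ATRIP.

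**Figure D2:**
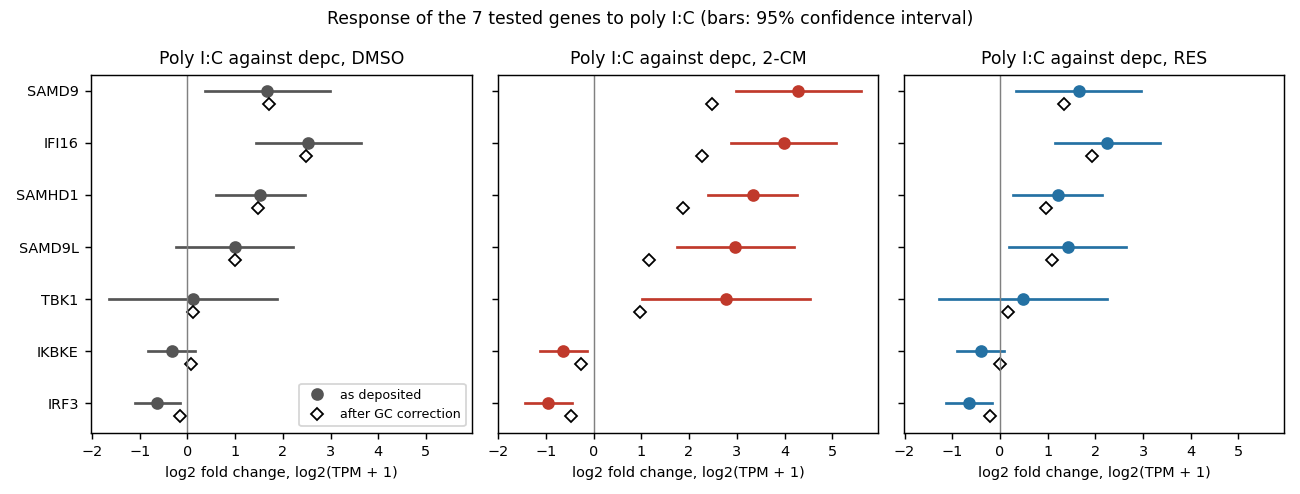
Log2 fold change of poly I:C against depc on the log2(TPM + 1) scale for the 7 tested genes under each compound. Filled circles are limma estimates with 95% confidence intervals and diamonds are the same estimates after correction for GC content; under 2-CM the 5 induced genes lie between 2.77 and 4.29 and their diamonds between 0.96 and 2.47.

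Each compound was then taken alone. Under DMSO, IFI16 was the 1 gene of 7 that passed, while 4.08% of all tested genes did. IFI16 rose by 2.53 (SE 0.48, adjusted p 0.0334, limma). Values for SAMHD1 were 1.53 (95% CI 0.59 to 2.46, adjusted p 0.0784), for SAMD9 1.67 (95% CI 0.36 to 2.98, adjusted p 0.146), and for SAMD9L 0.99 (95% CI -0.23 to 2.21). IRF3 stood at -0.63 (95% CI -1.11 to -0.15), IKBKE at -0.33 (95% CI -0.82 to 0.16) and TBK1 at 0.11 (95% CI -1.65 to 1.87). The libraries did not overlap for the 4 genes that lay higher, as for 11.5% of tested genes, or for the 2 that lay lower, as for 33.4%. In the fit of only the DMSO groups 0 of the 7 and 0.0349% of all genes passed, and the IFI16 call was also lost without any 1 of the 4 DMSO or 4 2-CM libraries, at 2.11 to 2.95 with an adjusted p of up to 0.247, in fits where 0.145 to 0.832% of genes passed.

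Under 2-CM all 7 tested genes passed, 5 higher and 2 lower, where 49.3% of tested genes passed, 37.5% higher and 11.8% lower. SAMD9 rose by 4.29 (SE 0.57, adjusted p 0.0104), IFI16 by 3.98 (SE 0.48, adjusted p 0.00609) and SAMHD1 by 3.33 (SE 0.41, adjusted p 0.00648). TBK1 rose by 2.77 (SE 0.77, adjusted p 0.0296). SAMD9L, tested through its poly I:C libraries, rose by 2.97 (SE 0.54, adjusted p 0.0237). IRF3 fell by 0.95 (SE 0.21, adjusted p 0.0274) and IKBKE fell by 0.64 (SE 0.22, adjusted p 0.0398). Without the filter on low levels, where 1.61% of genes passed, the calls of SAMD9L (adjusted p 0.0517), IRF3 (0.0585), IKBKE (0.0709) and TBK1 (0.0762) were lost, and IFI16, SAMHD1 and SAMD9 passed. The median of the 7 genes was 2.97 and that of all tested genes was 0.61. The libraries did not overlap for any of the 7, as for 62.6% of tested genes in the higher and 23.9% in the lower direction. Without any 1 of the 4 2-CM libraries (2-CM depc 1 or 2, 2-CM poly I:C 1 or 2), 0 of the 7 passed, and 0.215 to 0.268% of all tested genes did. The fold changes of the 5 higher genes were then 2.48 to 4.53, with adjusted p over the 7 of up to 0.193. The IKBKE call was also lost without DMSO depc 1 or DMSO depc 2, at -0.64 and adjusted p of 0.0544 and 0.055.

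Under RES 0 of the 7 passed with limma and 0 with voom, and 0.442% of tested genes passed with limma. At an unadjusted p under 0.05 there were 5 of the 7, and 14% of tested genes. The values were 2.25 for IFI16 (95% CI 1.15 to 3.35, adjusted p 0.113), 1.65 for SAMD9 (95% CI 0.34 to 2.95), 1.42 for SAMD9L (95% CI 0.20 to 2.64) and 1.21 for SAMHD1 (95% CI 0.28 to 2.14). IRF3 stood at -0.65 (95% CI -1.13 to -0.17), IKBKE at -0.40 (95% CI -0.89 to 0.09) and TBK1 at 0.49 (95% CI -1.27 to 2.25). The same 4 genes as under DMSO had all poly I:C libraries above the depc libraries, as did 6.05% of tested genes, and the same 2 had them below, as did 24.1%.

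The authors' deposited tables, made separately for each compound, gave log2 fold changes of normalised counts for all 8 genes, positive where poly I:C is higher, as read from the signs of IFI16 and IRF3 under 2-CM. For DMSO the authors' deposited table listed an adjusted p under 0.05 for 4 of them, IFI16 at 3.29, SAMD9 at 2.64, SAMD9L at 2.08 and SAMHD1 at 1.66, where 1.25% of its genes had one. For RES the authors' deposited table listed IFI16 at 2.81 and SAMD9 at 2.40 below that threshold, as were 0.363% of its genes, and SAMD9L at 2.39 with an adjusted p of 0.0708. For 2-CM the authors' deposited table had 7 of the 8 below it, TREX1 being the exception, against 46.4% of its genes. TBK1 was listed there at 2.21, IRF3 at -1.79 and IKBKE at -1.5 in the authors' deposited table.

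Whether the response differed between compounds was tested directly. For 2-CM minus DMSO, 0 of the 7 passed with limma or voom, as did 0.0116% of all tested genes by limma, and unadjusted p was under 0.05 for 4, as it was for 29.7% of tested genes. The difference was 2.65 for TBK1 (95% CI 0.17 to 5.14), 2.62 for SAMD9 (95% CI 0.77 to 4.47), 1.98 for SAMD9L (95% CI 0.25 to 3.70) and 1.80 for SAMHD1 (95% CI 0.48 to 3.12), with adjusted p of 0.161 or 0.162. IFI16 stood at 1.45 (95% CI -0.11 to 3.0), IRF3 at -0.31 (95% CI -1.0 to 0.37) and IKBKE at -0.30 (95% CI -1.0 to 0.39). The median over all tested genes was 0.68 in this difference. Over genes of like GC content it was 1.68 for IFI16, 1.40 for SAMHD1, 1.84 for TBK1, 1.95 for SAMD9 and 1.85 for SAMD9L. For RES minus DMSO 0 of the 7 passed by limma or voom, none had an unadjusted p under 0.05 (1.7% of tested genes had one), and 0% of tested genes passed. The estimates ran from -0.31 for SAMHD1 (95% CI -1.63 to 1.00) to 0.43 for SAMD9L (95% CI -1.29 to 2.16).

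The compounds were also set against DMSO within each transfection. With poly I:C, 2-CM libraries gave higher estimates than DMSO libraries for all 7 genes, and 0 passed with limma or voom, where 0.105% of tested genes did with limma, while 5 had an unadjusted p under 0.05, as did 34.2% of tested genes. SAMD9 stood at 2.17 (95% CI 0.86 to 3.47, adjusted p 0.0982), TBK1 at 1.82 (95% CI 0.06 to 3.58) and SAMD9L at 1.68 (95% CI 0.46 to 2.90). IFI16 stood at 1.32 (95% CI 0.22 to 2.42) and SAMHD1 at 1.11 (95% CI 0.18 to 2.04), and all tested genes had a median of 0.59. Genes of like GC content had medians of 1.25 for SAMD9, 1.23 for TBK1 and SAMD9L, 1.13 for IFI16 and 0.97 for SAMHD1. The median was 0.25 for IKBKE and for IRF3. The estimates for IKBKE (0.29) and IRF3 (0.10) were negative under upper-quartile scaling (-0.33 and -0.59) and median-of-ratios scaling (-0.41 and -0.68). With depc, 0 of the 7 passed for 2-CM against DMSO with limma or voom, against 0.0349% of tested genes, and IKBKE alone had an unadjusted p under 0.05 (as 4.84% of tested genes did), at 0.60 (95% CI 0.11 to 1.09, adjusted p 0.721). For RES against DMSO 0 of the 7 passed by limma or voom, and unadjusted p was under 0.05 for 0 of them. With depc 1.03% of tested genes passed and 14.7% had such an unadjusted p, and with poly I:C 0.157% and 13.4% did.

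**Figure D3:**
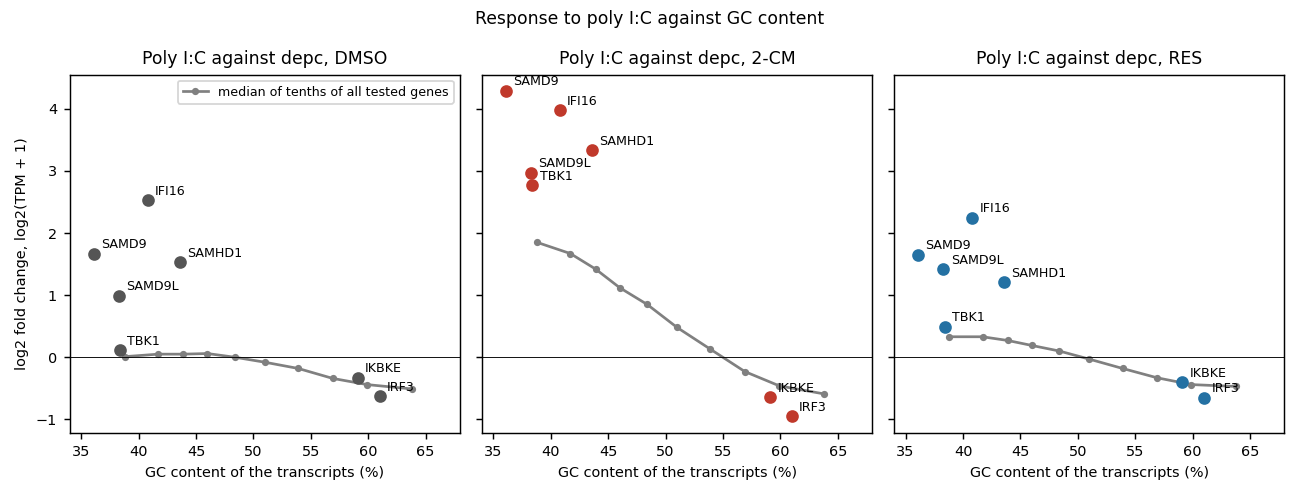
Log2 fold change of poly I:C against depc (log2(TPM + 1) scale) plotted against the GC content of each gene in percent, by compound. Coloured points are the 7 genes and the grey line joins the medians of 10 bins of all tested genes by GC content; under 2-CM the line falls from 1.85 at 38.8% GC to -0.59 at 63.8% GC.

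The response moved with GC content, and the 8 genes lie at both ends of it. SAMD9 (36.1% GC), SAMD9L (38.3%), TBK1 (38.4%), IFI16 (40.8%) and SAMHD1 (43.6%) are AT-rich, and IKBKE (59.1%), IRF3 (61.0%) and TREX1 (61.9%) are GC-rich. Under 2-CM, tested genes within 2 points of GC of a given gene had a median log2 fold change of 1.91 for SAMD9, 1.88 for SAMD9L and TBK1, 1.75 for IFI16 and 1.46 for SAMHD1. Those around IKBKE had -0.41 and those around IRF3 -0.50. Under DMSO the same medians were -0.06 to 0.05 for the 5 AT-rich genes, -0.41 around IKBKE and -0.47 around IRF3, next to the genes' own -0.33 and -0.63. IFI16, SAMHD1, SAMD9, SAMD9L and TBK1 lay above the median of genes of like GC content under each compound. TBK1 did so by little under DMSO (0.11 beside a median of 0.01) and RES (0.49 beside 0.35). Under RES the value of IKBKE (-0.40) stood beside -0.41.

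After the GC correction, 4 of the 7 passed under DMSO, and 15.4% of all genes in that fit did: IFI16 at 2.48 (adjusted p 3.99e-05), SAMD9 at 1.71 (0.000462), SAMHD1 at 1.47 (0.000332) and SAMD9L at 0.99 (0.0178). The same 4 passed under RES, where 3.02% of genes then did, with IFI16 at 1.93, SAMD9 at 1.34, SAMD9L at 1.09 and SAMHD1 at 0.96. Corrected IRF3 stood at -0.16 under DMSO (adjusted p 0.342) and at -0.20 under RES (adjusted p 0.345). Under 2-CM 6 passed, as did 31.3% of genes, and their changes were smaller than before the correction. SAMD9 stood at 2.47, IFI16 at 2.27, SAMHD1 at 1.88, SAMD9L at 1.16, TBK1 at 0.96 and IRF3 at -0.48. IKBKE stood at -0.27 (adjusted p 0.106). SAMD9L, counted here under each compound, entered the tested set through its poly I:C libraries, so its calls are not independent of the filter. No fit with the GC correction was made without that filter. The corrected difference of response between 2-CM and DMSO was -0.21 for IFI16, 0.17 for SAMD9L, 0.41 for SAMHD1, 0.76 for SAMD9 and 0.85 for TBK1, and 0 of the 7 and 0.0175% of all genes passed in that fit. Corrected SAMD9 with poly I:C was higher under 2-CM than under DMSO by 0.93 (adjusted p 0.0305), in a fit where 4.2% of genes passed. The correction removes any change that follows GC content, whether it arose in the cells or in the libraries, and these cannot be told apart.

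**Figure D4:**
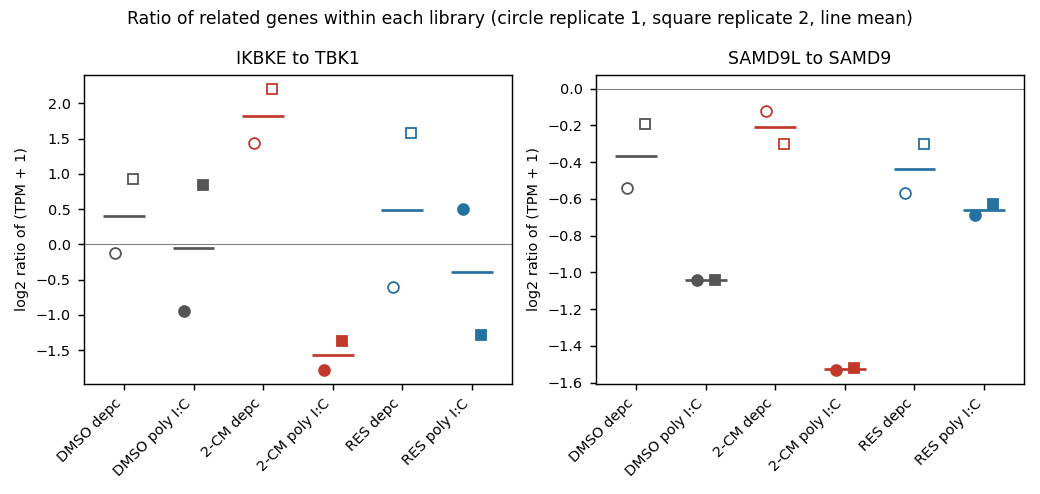
Log2 ratio of (TPM + 1) of IKBKE to TBK1 and of SAMD9L to SAMD9 within each library. Circles are replicate 1, squares are replicate 2, filled symbols had poly I:C and lines are means; the SAMD9L to SAMD9 ratio is between -1.53 and -0.63 in the poly I:C libraries and between -0.57 and -0.12 in the depc libraries, and without the added 1 the 2 sets overlap.

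Ratios within a library compare the related genes directly. The log2 ratio of SAMD9L to SAMD9, both as TPM + 1, was -0.54 and -0.19 with DMSO depc, -0.12 and -0.30 with 2-CM depc, and -0.57 and -0.30 with RES depc. With poly I:C it was -1.04 in both DMSO libraries, -1.53 and -1.52 under 2-CM, and -0.69 and -0.63 under RES. All 6 poly I:C libraries lay below all 6 depc libraries, on a scale where the added 1 draws the ratio toward 0 when both genes are near or below 1 TPM, as they were with depc. The difference averaged -0.74, with a two-sided exact permutation p of 0.00926 within compound, the smallest that 216 arrangements allow, and 0.0185 after adjustment over the 2 ratios. It was -0.53 with a pseudocount of 0.1 (adjusted exact p 0.0556) and -0.41 with none (adjusted exact p 0.0741, added after seeing the data), so neither kept the call. Nor did the replicate number as a block, at -0.74 (adjusted exact p 0.0625), where 64 arrangements allow no exact p under 0.0312. As plain TPM, SAMD9L over SAMD9 was 0.481 and 0.663 with DMSO depc, 0.422 and 0.334 with DMSO poly I:C, 0.757 and 0.381 with 2-CM depc, and 0.325 and 0.320 with 2-CM poly I:C. Under RES it was 0.539 and 0.513 with depc and 0.507 and 0.614 with poly I:C, which overlapped.

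The log2 ratio of IKBKE to TBK1 showed which of the related kinases had more transcript per length. It was -0.13 and 0.93 with DMSO depc, 1.44 and 2.21 with 2-CM depc, and -0.60 and 1.58 with RES depc. The poly I:C values were -0.94 and 0.84 under DMSO, -1.78 and -1.37 under 2-CM, and 0.50 and -1.29 under RES. Under 2-CM the order of the kinases turned, with IKBKE above TBK1 with depc and below it with poly I:C, and under DMSO and RES the libraries overlapped. The average difference was -1.58 with a two-sided exact permutation p of 0.0741 before and after adjustment. It passed without DMSO poly I:C 2 (-1.88), RES depc 1 (-1.94) or RES poly I:C 1 (-1.88), at adjusted exact p of 0.0370 to 0.0463, and it was -0.47 after the GC correction.

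The profile of each gene over the 12 libraries was compared with every tested gene outside the set by Pearson correlation of log2(TPM + 1). This is a description over libraries that share GC trends and treatments. Correlations among the members are given apart, below. IFI16 was most like IFIH1 (r = 0.996), DDX58 (0.995) and EPSTI1 (0.994), the first 2 being sensors of double-stranded RNA. SAMD9 was most like PARP14 (0.992), GBP1 (0.991) and DTX3L (0.989), and SAMD9L was most like AC006333.2 (0.990), CXCL11 (0.985) and DTX3L (0.984). SAMHD1 was most like SP100 (0.989), HERC6 (0.988) and PEX11A (0.987).

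TBK1, IKBKE and IRF3 kept other company. TBK1 was most like CSNK1G3 (0.997), SUV39H2 (0.996) and PLK4 (0.996), genes for a casein kinase, a histone methyltransferase and a centriole kinase, with GC contents of 39.2, 38.9 and 40.2%. IRF3 was most like SIPA1 (0.994), LMF2 (0.991) and SCRN2 (0.990), with GC contents of 66, 65.9 and 61.3%. IKBKE was most like PWWP2B (0.964), SYNGR3 (0.961) and AC093673.1 (0.955), with GC contents of 69.2, 67.4 and 61.3%. Among the members, r over the 12 libraries was 0.99 between SAMD9 and SAMD9L, 0.97 between IFI16 and SAMHD1, 0.91 between IKBKE and IRF3 and -0.56 between TBK1 and IKBKE.

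Other genes of the pathway were read from 4 lists, against a background of 4.08%, 49.3% and 0.442% of tested genes called under DMSO, 2-CM and RES. Under RES 14% of tested genes had an unadjusted p under 0.05 by limma, the background for the unadjusted counts given below. Of 11 DNA sensors and STING partners 8 were tested: 1 rose under DMSO, 3 rose and 2 fell under 2-CM, and 0 passed under RES with limma (1 at an unadjusted p under 0.05). ZBP1, a sensor of Z-form nucleic acid, was listed at 0 in both depc libraries of DMSO and of 2-CM, and averaged 0.870 TPM (SD 0.456, n = 2) and 1.53 TPM (SD 0.217, n = 2) with poly I:C; it passed in both. ZBP1 and CGAS entered the tested set through their poly I:C libraries, with 0 and 1 depc libraries at 1 TPM or more, so their calls, which are in the counts above, are not independent of the filter. CGAS, the cytosolic DNA sensor, rose under 2-CM by 1.38 (SE 0.32, adjusted p 0.0274, limma), from 0.402 to 2.65 TPM. Tested genes within 2 points of its GC content (45.3%) had a median of 1.21 there. XRCC5 rose under 2-CM by 1.60 (SE 0.50, adjusted p 0.0340, limma), where genes of like GC content had a median of 1.47.

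Of the 11 TBK1 and IKK partners, all tested, 1 rose under DMSO, 5 rose and 1 fell under 2-CM, and 0 passed under RES with limma (3 at an unadjusted p under 0.05). The gene that rose under DMSO was IRF7, the inducible relative of IRF3, by 2.64 (SE 0.33, adjusted p 0.00829), from 4.42 to 33.5 TPM. IRF7 also rose under 2-CM, by 2.14 (SE 0.33, adjusted p 0.0158, limma), from 9.44 to 44.8 TPM. IRF7 has a GC content of 67.2%, so its change ran opposite to that of GC-rich genes at large. Under 2-CM the scaffold TANK rose by 2.77 (SE 0.68, adjusted p 0.0276), the kinase CHUK by 2.37 (SE 0.76, adjusted p 0.0355) and the adaptor AZI2 by 2.16 (SE 0.61, adjusted p 0.0297), and all 3 have GC contents of 38.9 to 40.6%. Tested genes of like GC content had medians of 1.81, 1.87 and 1.76 there, in the same order.

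The next list held 11 genes of nucleic acid removal or of Aicardi-Goutières syndrome, all tested. Of these 1 rose under DMSO, 5 rose and 4 fell under 2-CM, and 0 passed under RES with limma (2 at an unadjusted p under 0.05). The gene called under DMSO was IFIH1, an RNA sensor listed for that syndrome, at 2.26 (SE 0.46, adjusted p 0.0380, limma). IFIH1 also rose under 2-CM, by 4.18 (SE 0.46, adjusted p 0.00420, limma). PNPT1, a mitochondrial RNA exonuclease, rose by 3.68 (SE 0.67, adjusted p 0.0239) under 2-CM, and RNASEH2B rose by 1.73 (SE 0.52, adjusted p 0.0319, limma). Genes of like GC content had medians there of 1.77 for IFIH1, 1.52 for PNPT1 and 1.59 for RNASEH2B. Of 10 genes of dNTP supply and SAMHD1 control, 1 rose under DMSO, 7 rose and 1 fell under 2-CM, and 0 passed under RES with limma (1 at an unadjusted p under 0.05). CDK2, which phosphorylates SAMHD1, rose under DMSO by 1.06 (SE 0.24, adjusted p 0.0477). Under 2-CM the largest changes were those of CDK1 at 2.85, the nucleoside kinase DCK at 2.74 and the reductase subunit RRM2B at 2.34, with GC contents of 37.2, 39.0 and 42.7%. Medians of genes of like GC content were 1.90, 1.86 and 1.55 in that order. List medians under 2-CM were 0.52 for the sensors, 1.06 for the kinase partners and 1.59 for dNTP supply, where all tested genes had 0.61. The list of nucleic acid removal and the syndrome had 0.85.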

How the data were processed

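Poly(A) RNA of 12 NS-SV-AC libraries was sequenced in paired reads of 101 bases with a strand-marking kit, per the labels' protocols. The submitters' processing notes name bcl2fastq 2.20, HISAT2 2.1.0, StringTie, DESeq2 and the build hg38. StringTie 2.0.4 was run on the GENCODE 32 annotation, per the file headers, and wrote for each transcript a coverage, an FPKM and a TPM. The authors' deposited tables, 1 for each compound, hold a signal (the mean of normalised counts), the log2 fold change and its SE, a score (the test statistic), and a p-value before and after adjustment.

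Gene TPM is the sum over a gene's transcripts (Python 3.11.15, pandas 2.3.3). Reads were estimated as coverage times length over read length. Counts were not used, and normalised values call for a test on the log scale. Group means of log2(TPM + 1) were fitted by limma 3.58.1 (R 4.3.3) over the 17185 genes that at least 2 libraries held at a TPM of 1 or above, with a variance trend and 6 residual degrees of freedom. Each of 10 contrasts was adjusted by Benjamini-Hochberg over all tested genes, and called at an adjusted p under 0.05. The 2 ratios were tested by exact permutation of transfection within compound. GC content is that of a gene's transcripts, had for 99.7% of tested genes, and the correction subtracts a lowess trend (span 0.3) in each library. Transcript types and GC content came from a later GENCODE release than that of the deposited files. A transcript absent from the later release was counted as not protein coding. The limma fit was tested on simulated data with known changes. Noise there was independent between genes and libraries, so that test does not cover the replicate differences that follow GC content in these libraries.

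Named genes are the 8 genes themselves, and up to 3 called genes with the largest change per pathway list and compound. The others are the 3 most correlated genes outside the set per member, and genes that overlap a member. Members and lists were chosen with earlier results of these data known. Alternatives were FPKM, estimated reads with voom, other scalings and filters, a pseudocount of 0.1, a covariate of replicate differences, the replicate number as a block, only the groups compared, and each library left out.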

Additional observations from a re-analysis of the deposited data

How the results depend on the processing

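Counts of members called are given with the share of all tested genes called in the same fit. SAMD9L, tested through its poly I:C libraries wherever a filter was used, is among the members counted. In the DMSO comparison (1, 4.08%), 4 passed with the GC correction (15.4%) and 4 with the block as well (13.9%), 3 with the GC correction and only the groups compared (4.06%, chosen after seeing the data), 2 with upper-quartile (0.803%) or median-of-ratios scaling (0.739%), 0 without the filter (2.06%) and 0 with only the groups compared (0.0349%). Under RES (0, 0.442%) there were 4 with the GC correction (3.02%) and with the block as well (2.52%), 1 when only the groups compared were also fitted (0.298%), and 1 with either scaling (0.221% and 0.227%). Under 2-CM (7, 49.3%), 3 passed without the filter (1.61% of 40364 genes). The covariate of replicate differences, which lowers the spread by construction, gave 6 under DMSO (38.2%), 7 under RES (36.3%), 5 for 2-CM minus DMSO (57.6%), 4 and 6 for 2-CM against DMSO with depc (33.5%) and poly I:C (65.2%), and 1 each for RES against DMSO (27.8% and 37.5%). The GC correction gave 1 for 2-CM against DMSO with poly I:C (SAMD9, 4.2%) and 1 for RES against DMSO with depc (SAMHD1, 0.56, 11.3%), also with the block (2.99% and 10.5%). Leaving out 1 library, as named above, could end the calls of IFI16 under DMSO, every tested member under 2-CM and IKBKE averaged over compounds. It could also give a call of TBK1 averaged over compounds. In such fits a group left with 1 library was taken to vary like the others. The main fit did not pair same-numbered replicates. Correlations of their differences were 0.15 to 0.76 among 5 groups and -0.80 to -0.31 between RES poly I:C and those groups. A block by labelled number cannot take up an order that runs opposite in 1 group, and whether replicates were paired was not tested. The block alone left the counts at 1 under DMSO (2.01%), 7 under 2-CM (51.8%), 0 under RES (0.227%) and 6 averaged over compounds (33.3%). The SAMD9L to SAMD9 ratio was -0.74 (exact p 0.0312, the smallest that 64 arrangements allow, and 0.0625 adjusted over the 2 ratios) with the block, -0.53 with a pseudocount of 0.1, -0.41 with none, and -0.80 to -0.68 without 1 library; that of IKBKE to TBK1 ranged from -1.94 to -1.21. The GC correction, alone, with the block or with only the groups compared, turned the sign of IKBKE under DMSO (0.08) and RES (0.00), IFI16 in 2-CM minus DMSO (-0.21) and IRF3 in 2-CM against DMSO with poly I:C (-0.14), where IRF3 was also -0.20 with FPKM and with voom, -0.59 and -0.68 with the upper-quartile and the median-of-ratios scalings, and -0.03 to 0.22 without 1 library, and IKBKE was -0.33 and -0.41 with the scalings. TBK1 ranged from -0.72 to 0.95 under DMSO and from -0.45 to 1.43 under RES without 1 library. Except where stated, the cause was not tested. With 2 libraries a group, and IFI16, SAMD9 and SAMD9L near or below 1 TPM with depc, small changes cannot be detected at this depth, and the level of TREX1 cannot be separated from ATRIP.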
